A study of Mus musculus with 6 samples.

Results

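MHC class I molecules and the proteins that load them were represented by 9 genes, *B2m*, *H2-K1*, *H2-D1*, *Tap1*, *Tap2*, *Tapbp*, *Psmb8*, *Psmb9* and *Nlrc5*, out of 53657 gene names counted in each of 6 mice. The genes were taken by name, all 9 had counts in every mouse, and all 9 passed the filter on low counts. RNA-seq was performed on sorted mouse undifferentiated spermatogonia (Aundiff), the testis population that holds the spermatogonial stem cells, to ask how an activated *Hras* allele affects gene expression. All 6 mice were adult, carried *Gfra1-creERT2* and a tdTomato reporter, and received 2 courses of tamoxifen 3 months before the cells were isolated as tdTomato+ and MCAM-bright. The 3 WT mice had no mutant allele, and the 3 MUT mice were heterozygous for the *Hras* G12V mutation, made from an FR-*Hras* G12V flox-and-replace allele. In these animals the *Gfra1* promoter drives a tamoxifen-inducible Cre, so recombination need not occur in every cell, and MCAM also marks some somatic cells. The share of mutant reads was not analysed here. The animals were of mixed background (C57BL/6J, 129/Sv and Swiss Black) and the controls were littermates. The MHC haplotype of each mouse is not given in the sources used here, while the fragments were counted on the C57BL/6J reference.

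MHC class I molecules carry peptides from inside the cell to its surface, where CD8+ T cells and natural killer cells inspect them. Each consists of a heavy chain, such as those encoded by *H2-K1* and *H2-D1*, bound to beta-2 microglobulin, the product of *B2m*. Peptides are cut by the proteasome, pumped into the endoplasmic reticulum by the transporter TAP and loaded with the help of tapasin, and interferon induces most of these genes. Germ cells of the testis are known for low levels of class I molecules, and the testis also houses resident macrophages.

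The upstream sequences of *B2m*, *H2-K1* and *H2-D1* are shown because these genes are known to be switched on through a shared promoter module that binds RFX, CREB-type and NF-Y factors with NLRC5, and because their levels moved together between the mice. Whether the module bears on those levels was not tested. In each, TGACG was followed by ATTGG starting 25 bases further on (both in capitals). *H2-M3*, a class Ib heavy chain gene, was the remaining gene of the lists used here with that pair. Capitals also mark matches to GGGANNNCCC on either strand, the form of an NF-κB site, in *H2-K1*, and a match to GAAANNGAAA, the form of an interferon-stimulated response element, in *B2m*. *H2-D1* also held matches to GGGANNNCCC, 171 and 170 bases before its RefSeq start, outside the stretch shown. The sequences are RefSeq's on GRCm38.p6, read 5′ to 3′ on the strand of the gene. The *B2m* stretch is chr2:122147519-122147648 on the plus strand, the *H2-K1* stretch is chr17:34000349-34000478 on the minus strand, and the *H2-D1* and *H2-M3* stretches are chr17:35262993-35263022 and chr17:37270188-37270217 on the plus strand.
B2m: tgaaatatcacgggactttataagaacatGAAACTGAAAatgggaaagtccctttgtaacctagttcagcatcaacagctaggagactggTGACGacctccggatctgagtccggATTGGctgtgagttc
H2-K1: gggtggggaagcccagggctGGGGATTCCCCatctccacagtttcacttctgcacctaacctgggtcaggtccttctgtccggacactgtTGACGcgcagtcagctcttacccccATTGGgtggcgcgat
H2-D1: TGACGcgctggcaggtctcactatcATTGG
H2-M3: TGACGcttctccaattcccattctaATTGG

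The TGACG of the pair began 78 bases before the RefSeq start of *B2m*, 41 before that of *H2-K1*, 101 before that of *H2-D1* and 46 before that of *H2-M3*. For *H2-D1* the pair is shown without flanks, because all 30 bases lie in an exon of the counted annotation, which starts the gene further upstream than RefSeq does. The spacing was read off these promoters, so its occurrence is a description. Both strands were searched in the 250 bases before each start. The spaced pair was found in 30 of 32851 promoters (0.0913%), whereas TGACG alone was in 17.8%, ATTGG in 33.8%, GGGANNNCCC in 4.77% and GAAANNGAAA in 2.98%. Among the listed class I and class II genes, 75 had a promoter in the RefSeq table, and 4 of them held the pair. *Tap2* and *Nlrc5* had no entry. *Psmb8* held TTCNNNGAA, the form of a STAT site, which was in 7.02% of promoters, at 97 bases before its start. *Tap1* and *Psmb9* start 226 bases apart on opposite strands of chromosome 17.

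The genes lie in GRCm38 as follows. *B2m* spans chr2:122147686-122153083, and *Nlrc5* spans chr8:94434356-94527272. The other 7 lie on chromosome 17, in the mouse MHC or beside it. These are *Tapbp* (chr17:33915899-33929288), *H2-K1* (chr17:33996017-34000333), *Psmb9* (chr17:34181988-34187764), *Tap1* (chr17:34187553-34197225), *Psmb8* (chr17:34197721-34201454), *Tap2* (chr17:34203527-34216321) and *H2-D1* (chr17:35262730-35267499).

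Fragments were counted without regard to strand, and those that overlapped several genes or aligned to several places were left out. Exons shared with another counted gene made up 22% of *Tapbp*, 18.5% of *Tap2*, 6.8% of *Psmb8*, 5.79% of *Psmb9*, 3.87% of *Tap1* and 0.918% of *Nlrc5*, so levels per length of these genes can be underestimated. *B2m*, *H2-K1* and *H2-D1* shared no exon base with another gene. Windows of 50 bases that occurred identically in a transcript of another gene made up 21% of *Tapbp*, 14.3% of *H2-D1*, 12.6% of *Tap2*, 12.5% of *Psmb9*, 8.79% of *H2-K1*, 6.47% of *Tap1* and 5.83% of *Psmb8*, and 0 of *B2m* and *Nlrc5*. For *H2-K1* the windows came from 25 other genes, 15 of them with names that start with H2, and for *H2-D1* from 168 other genes, 15 of them so named. The longest coding run identical in *H2-K1* (chr17:33997343-33997433, bases 738 to 828 of its coding sequence in GENCODE vM21) and *H2-D1* (chr17:35265911-35266001, bases 747 to 837) is shown because a 50-base read lying wholly inside it cannot by itself be assigned to either gene.
H2-K1 and H2-D1: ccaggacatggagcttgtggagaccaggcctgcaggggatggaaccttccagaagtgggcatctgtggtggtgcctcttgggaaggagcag

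Between 22729292 and 23550433 fragments were counted per mouse, and 3 counts, taken as the limit of detection from counting alone, correspond to 0.127 to 0.131 CPM (counts scaled to a common library size by TMM). *Hras* itself was between 56.8 and 69.9 CPM with overlapping groups, and its gene counts do not separate the alleles. The 8 markers of undifferentiated spermatogonia, among them *Mcam* and *Gfra1*, were all detected and together gave 1728 to 2275 CPM. The 10 leukocyte and macrophage genes, among them *Lyz2*, *Csf1r* and *C1qa*, were also all detected in every mouse and together gave 859.8 to 1550 CPM. The 8 markers of T and NK cells together gave 9.66 to 15.0 CPM, most of it from *Cd4* and *Cd3e*. *Cd3g*, *Nkg7* and *Klrb1c* had 0 counts in some mice and at most 3, 6 and 1 in the others. WT replicate 3 and MUT replicate 3 stood apart from the other mice of their groups. Without those 2 mice, edgeR called 456 genes at an adjusted p under 0.1, compared with 2 genes when all 6 were used.

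The 9 genes were expressed at very different levels. Per kilobase of exon, *B2m* was the most abundant, at 143.3 ± 43.3 CPM per kilobase (SD, n = 6), above 99.2% of tested genes. The heavy chains *H2-D1* (57.1 ± 14.3) and *H2-K1* (55.4 ± 13.6) and tapasin, *Tapbp* (49.2 ± 4.73), followed on the same scale, and their ranges overlapped each other. *B2m* was above *H2-D1* in every mouse, without overlap of the ranges. All 4 lay above 95% of tested genes.

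The other 5 were at least an order of magnitude lower per kilobase of exon. This scale divides by all exon bases of a gene, which can exceed its longest protein-coding transcript in GENCODE vM21. They were 3659 against 1352 bases for *Psmb9*, and 3296 against 2898 for *Tapbp*. The size of the gaps therefore depends on the length used. *Psmb9* was at 3.44 ± 0.24 CPM per kilobase (SD, n = 6), *Psmb8* at 2.92 ± 0.827, *Tap1* at 2.25 ± 0.413, *Tap2* at 2.06 ± 0.404 and *Nlrc5* at 1.27 ± 0.209, between the 30.2 and 47.5 percentiles of tested genes. Each neighbouring pair among these 5 overlapped in range, although *Psmb8* exceeded *Tap1*, and *Tap2* exceeded *Nlrc5*, within each of the 6 mice. The constitutive subunits that *Psmb8* and *Psmb9* replace in the immunoproteasome were far more abundant, with *Psmb5* at 80.1 ± 13.7 and *Psmb6* at 123.8 ± 7.7 CPM per kilobase.

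**Figure D1:**
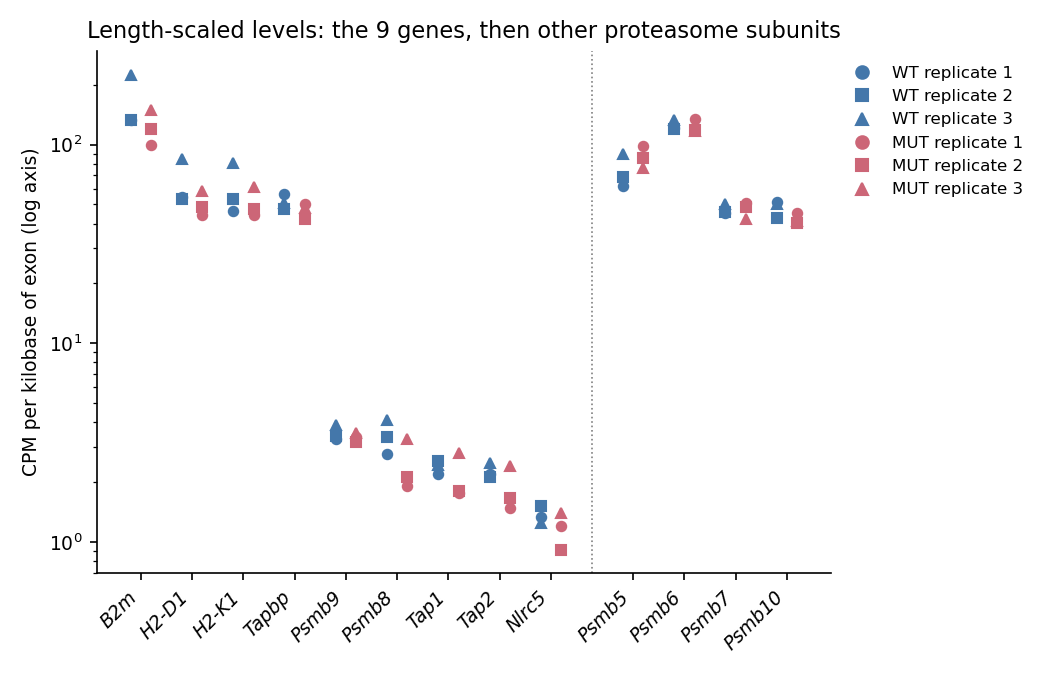
Length-scaled level of each gene (vertical log axis, CPM per kilobase of exon) in each of the 6 mice, for the 9 genes in order of their mean and, right of the dotted line, for proteasome subunits Psmb5, Psmb6, Psmb7 and Psmb10. Colours mark WT and MUT and symbols mark replicates. B2m, H2-D1, H2-K1 and Tapbp lie between 42.3 and 225.2, and the other 5 genes between 0.914 and 4.09.

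For MUT against WT, none of the 9 genes passed the test of edgeR's quasi-likelihood fit at a threshold of 0.1 (adjusted p = 0.998 for each, Benjamini-Hochberg over 19656 genes), where 0.0102% of all tested genes passed. At an unadjusted p under 0.05, edgeR and limma voom gave 0 of the 9, against backgrounds of 1.44% and 1.61% of genes lower in MUT. DESeq2 gave 3 (*B2m*, *H2-D1* and *Psmb8*, all lower), against 0.778% of 37271 genes, a set without the edgeR filter on low counts. Of the 19656 genes tested in edgeR, 388 reached that threshold in DESeq2, in either direction. DESeq2 called none of the 9 after adjustment, against 0.0241% of the 37271 genes. The groups overlapped for all 9 genes, whereas 3.00% of tested genes had all MUT mice below all WT mice. All 9 estimates were nonetheless below 0, with a median log2 fold change of -0.236, while 48.2% of tested genes had a negative estimate and their median was 0.00656. Among genes from 5 to 20 CPM, the range of the less abundant members, 57.1% were negative, and among genes of 100 CPM or more 26.0% were.

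In these bulk samples, fewer cells of a type and less RNA per cell cannot be told apart. *B2m* was at 114.8, 113.9 and 193.7 CPM in WT replicates 1 to 3 and at 85.7, 103.3 and 127.8 CPM in MUT replicates 1 to 3. WT replicate 3 stood above all other mice, and MUT replicate 3 was above the remaining WT mice. The log2 fold change was -0.42 (95% confidence interval -0.92 to 0.09, edgeR), an estimate 25.0% lower in MUT. Without WT replicate 3 it was -0.12, and without MUT replicate 3 it was -0.57.

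The classical heavy chains had the same pair of highest mice as *B2m*. *H2-K1* was at 121.1, 138.3 and 209.5 CPM in WT and at 115.4, 123.9 and 158.8 CPM in MUT, with a log2 fold change of -0.24 (interval -0.7 to 0.22). *H2-D1* was at 140.3, 137.3 and 217.5 CPM in WT and at 113.4, 124.5 and 150.3 CPM in MUT, with a log2 fold change of -0.35 (interval -0.77 to 0.07). In both genes WT replicate 3 was the highest mouse, MUT replicate 3 came next, and MUT replicate 1 was the lowest. Without WT replicate 3 the *H2-K1* estimate turned to 0.03, and that of *H2-D1* was -0.10. The *H2-K1* estimate was -0.4 without WT replicate 1, -0.15 without MUT replicate 1 and -0.38 without MUT replicate 3.

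*Tap1* and *Tap2* encode the subunits of the peptide transporter. *Tap1* was at 12.0, 13.9 and 13.3 CPM in WT and at 9.66, 9.89 and 15.3 CPM in MUT, with a log2 fold change of -0.17 (interval -0.6 to 0.27). *Tap2* was at 8.3, 7.99 and 9.42 CPM in WT and at 5.59, 6.29 and 9.06 CPM in MUT, with a log2 fold change of -0.3 (interval -0.75 to 0.16). For both genes MUT replicates 1 and 2 were below all WT mice and MUT replicate 3 was not. Without MUT replicate 3 the estimates were -0.41 for *Tap1* and -0.53 for *Tap2*, and without MUT replicate 1 they were -0.05 and -0.17. The *Tap1* estimate was -0.07 without MUT replicate 2.

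*Tapbp* encodes tapasin, which holds the heavy chain at the transporter while peptides are loaded. It was at 186.6, 156.2 and 168.0 CPM in WT and at 165.6, 139.3 and 158.1 CPM in MUT, with a log2 fold change of -0.14 (interval -0.35 to 0.07). Its highest mouse was WT replicate 1, unlike the heavy chains and *B2m*. The highest and lowest mice differed 1.34-fold, compared with 2.26-fold in *B2m*. The estimate for *Tapbp* was -0.08 without WT replicate 1, -0.09 without MUT replicate 2 and -0.21 without WT replicate 2.

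*Psmb8* and *Psmb9* encode inducible catalytic subunits that turn the proteasome into the immunoproteasome. *Psmb8* was at 7.6, 9.19 and 11.2 CPM in WT and at 5.2, 5.77 and 8.98 CPM in MUT, and its log2 fold change of -0.49 (interval -1.03 to 0.05) was the lowest estimate of the 9. Its MUT replicates 1 and 2 were below all WT mice, and without MUT replicate 3 the estimate was -0.76. *Psmb9* was at 12.0, 12.5 and 14.2 CPM in WT and at 12.3, 11.7 and 12.9 CPM in MUT, and its log2 fold change of -0.07 (interval -0.34 to 0.21) was the closest to 0. The estimate for *Psmb9* was 0.006 without WT replicate 3, -0.13 without WT replicate 1, -0.04 without MUT replicate 2 and -0.10 without MUT replicate 3.

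*Nlrc5* encodes the transactivator of class I genes. It was at 11.3, 12.9 and 10.6 CPM in WT and at 10.2, 7.76 and 11.9 CPM in MUT, with a log2 fold change of -0.22 (interval -0.62 to 0.18). MUT replicate 2 was lowest, MUT replicate 1 lay just below the WT mice and MUT replicate 3 lay among them. The estimate was -0.08 without MUT replicate 2, -0.15 without WT replicate 2 and -0.37 without MUT replicate 3. The intervals of 8 of the 9 genes, all but *Psmb8*, lay within 1 log2 unit of 0, that is, within a 2-fold difference in either direction.

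**Figure D2:**
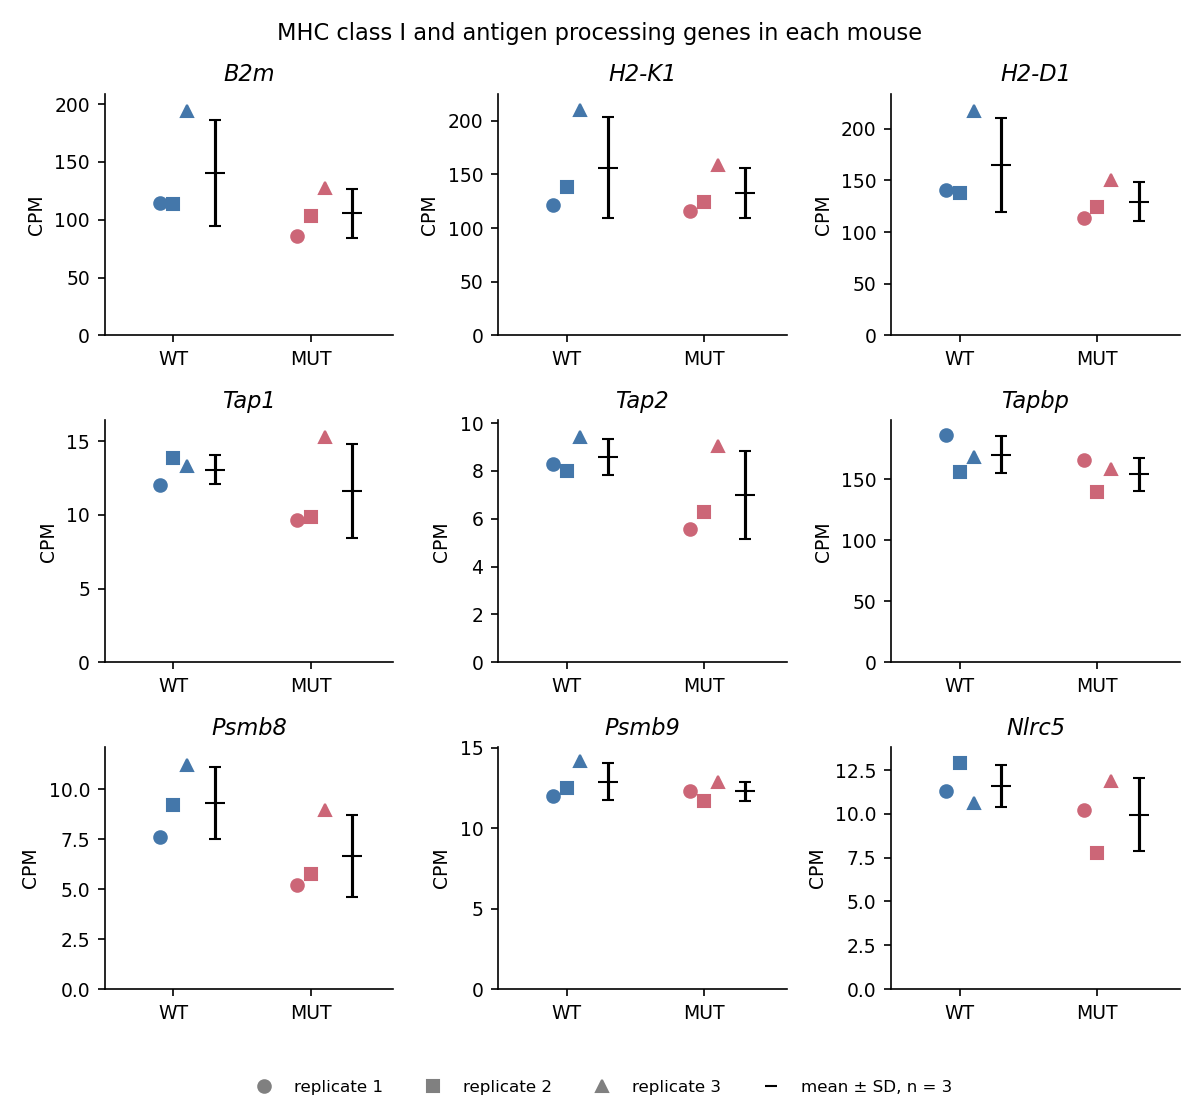
CPM of each of the 9 genes (vertical axes from 0) in WT and MUT mice, with a symbol per replicate number and the mean ± SD of 3 mice in black. The groups overlap in every panel, and WT replicate 3 is the highest mouse for B2m, H2-K1, H2-D1, Tap2, Psmb8 and Psmb9.

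Replicate 3 was high in both groups. WT replicate 3 was the highest of all 6 mice for 6 of the 9 genes, as it was for 26.7% of tested genes, and MUT replicate 3 was the highest MUT mouse for 8 of 9, as it was for 36.8%. The lowest mouse was MUT replicate 1 for 6 genes and MUT replicate 2 for 3. Compared by replicate number, 6 of 9 genes (*B2m*, *H2-K1*, *H2-D1*, *Tap2*, *Tapbp* and *Psmb8*) were lower in MUT in all 3 pairs, a pattern found in 13.0% of tested genes.

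With the replicate number as a block, edgeR called 13 of 19656 genes (0.0661%) and none of the 9. The blocked edgeR fit gave an unadjusted p under 0.05 to 4 genes, *B2m*, *H2-D1*, *Psmb8* and *H2-K1*, all lower in MUT. Their adjusted p in that fit was 0.249, 0.302, 0.339 and 0.662, in the same order. In the same fit, 4.71% of tested genes were lower in MUT at that threshold. Without replicate 3 of both groups, 6 of the 9 had an unadjusted p under 0.05 in edgeR, all lower (*B2m*, *H2-D1*, *Tap1*, *Tap2*, *Psmb8* and *Nlrc5*), compared with 7.66% of tested genes. None passed after adjustment in that fit either, where 2.33% of genes were called, and the smallest adjusted p was 0.137, for *Psmb8*. The median of the 9 estimates in that fit was -0.278.

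**Figure D3:**
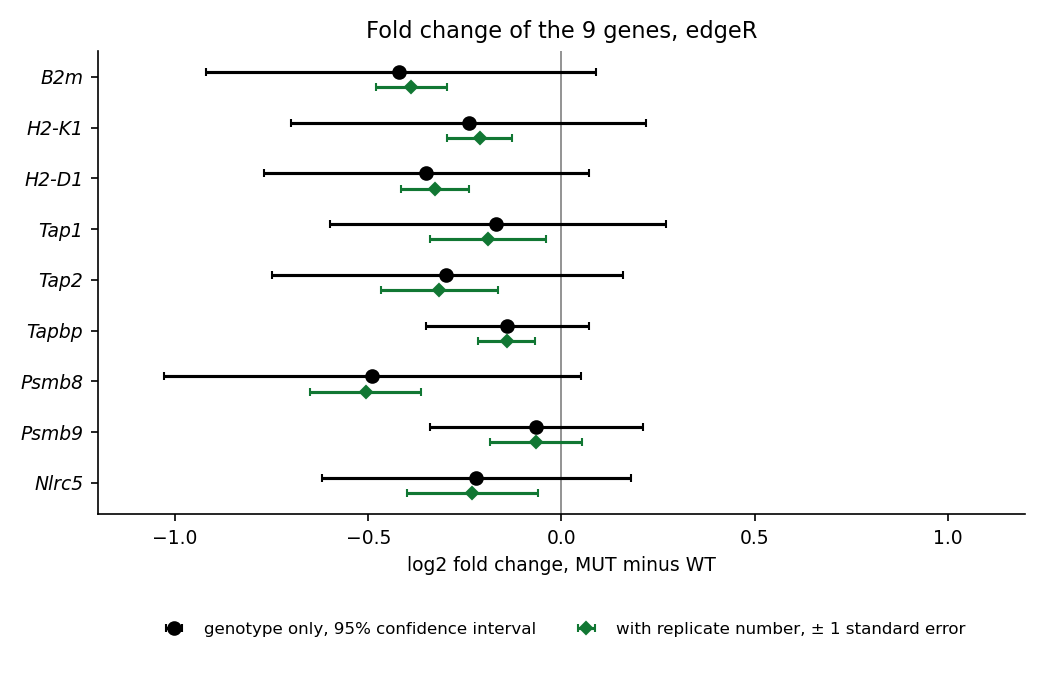
Log2 fold change of MUT minus WT (horizontal axis) for the 9 genes from edgeR, with genotype only (black circles, bars are 95% confidence intervals) and with the replicate number added (green diamonds, bars are ± 1 standard error). The black intervals of all 9 genes include 0, and the estimates lie between -0.49 for Psmb8 and -0.07 for Psmb9.

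To set the inducible proteasome subunits against the subunits they replace, 3 ratios of length-scaled levels were compared. *Psmb8* was 4.48%, 4.89% and 4.59% of *Psmb5* in WT and 1.92%, 2.46% and 4.3% in MUT. All MUT mice were below all WT mice, with MUT replicate 3 close to WT, and the mean log2 ratio was lower by 0.77 in MUT. The exact two-sided permutation test gave p = 0.1, the smallest that 3 against 3 allow, and 0.3 after adjustment over the 3 ratios. The estimates of the 2 subunits differed in direction, neither passing the test, since *Psmb5* was at 55.8, 61.8 and 80.2 CPM in WT and 88.9, 77.0 and 68.5 CPM in MUT (log2 fold change 0.24, adjusted p = 0.998 from edgeR).

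*Psmb9* was 2.72%, 2.87% and 2.9% of *Psmb6* in WT and 2.51%, 2.7% and 3.0% in MUT, with overlapping groups and a log2 difference of -0.05 (exact permutation test, p = 0.6). *Psmb10*, which encodes the remaining inducible subunit and is the abundant one here, was at 114%, 92.5% and 100.5% of *Psmb7* in WT and 89.3%, 82.9% and 98.2% in MUT. These groups overlapped as well, and the log2 difference was -0.18 (exact permutation test, p = 0.2, adjusted p = 0.3). *Psmb10* was thus at a level near that of its constitutive counterpart, whereas *Psmb8* and *Psmb9* were at a few percent of theirs. These percentages depend on the exon lengths used.

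**Figure D4:**
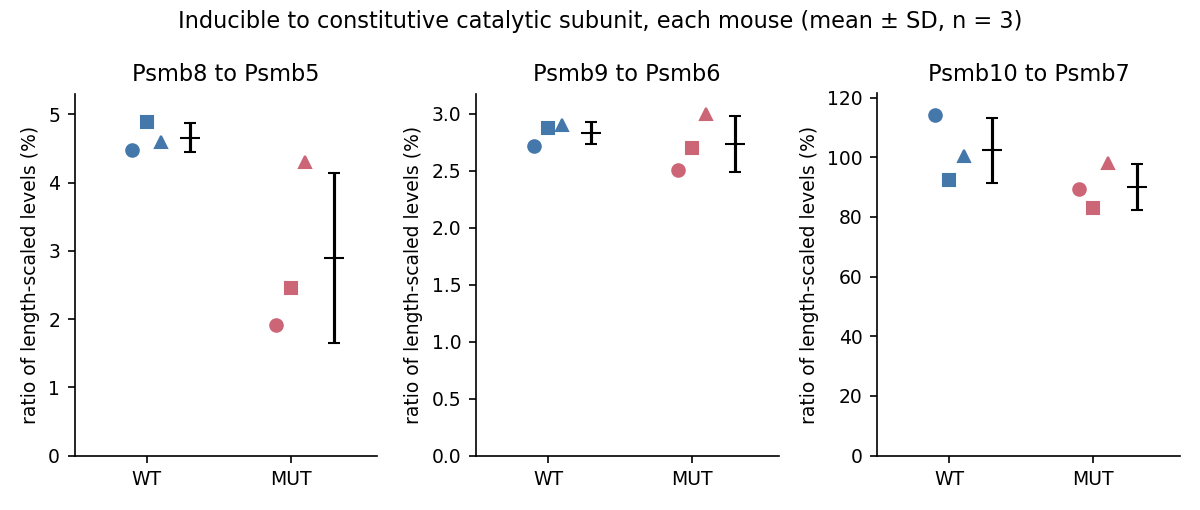
Length-scaled level of each inducible proteasome subunit as a percentage of the constitutive subunit it replaces (vertical axes from 0) in each mouse, with the mean ± SD of 3 mice in black and symbols for replicates as circles, squares and triangles for 1, 2 and 3. For Psmb8 to Psmb5 the WT mice lie between 4.48% and 4.89% and the MUT mice between 1.92% and 4.3%.

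Of 73 further class I pathway genes in 6 lists, 69 were tested and edgeR called 0. At an unadjusted p under 0.05 there were 2 in edgeR, 2 in limma voom and 2 in DESeq2, where 2.78% of all tested genes reached that threshold in edgeR. Their median log2 fold change was -0.013, with 40 estimates below 0 and 29 above. With the block, 6 had an unadjusted p under 0.05, against 6.60% of tested genes, and none were called.

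The 12 genes of folding and peptide trimming, led in level by the endoplasmic reticulum proteins *Pdia3*, *Calr* and *Hspa5*, had a median log2 fold change of 0.03, from -0.19 for *Ide*, a peptidase, to 0.15 for *Lnpep*, an aminopeptidase of endosomes. The 5 genes *Psmb10* and *Psme1* to *Psme4*, the latter encoding the proteasome activators PA28 and PA200, ranged from -0.19 for *Psmb10* to 0.14 for *Psme3*. The 14 subunits of the constitutive 20S core had a median of 0.003 and ranged from -0.05 for *Psmb4* to 0.24 for *Psmb5*. Summed over each list, MUT was at 1.02, 1.02 and 1.01 times WT.

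Among 19 class Ib and class I-like heavy chain genes, 15 were tested, with a median log2 fold change of -0.08. *H2-Q2* was at 13.0, 11.0 and 10.7 CPM in WT and 14.9, 14.4 and 14.4 CPM in MUT, so all MUT mice were above WT, a pattern found in 4.69% of tested genes (log2 fold change 0.33, unadjusted p = 0.0242, adjusted p = 0.998 from edgeR). *H2-M3* was at 16.8, 17.0 and 17.2 CPM in WT and 16.0, 9.93 and 15.4 CPM in MUT. All its MUT mice were below WT, a pattern found in 3.00% of tested genes (log2 fold change -0.31, adjusted p = 0.998 from edgeR). *Fcgrt*, which encodes the neonatal Fc receptor, was the most abundant of the list per kilobase (11.6 CPM per kilobase) and had a log2 fold change of -0.03. The lowest estimate was -0.76 for *H2-M2*, which had between 6 and 35 counts per mouse. These heavy chain genes are close relatives, and fragments that aligned to several of them were left out, so their levels can be underestimated.

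The RFX and NF-Y genes and their partners, which encode the proteins that occupy the class I promoter module, had a median of -0.001 over 7 genes and ranged from -0.08 for *Rfxap* to 0.09 for *Nfya*. The 16 genes of interferon receptors and related signalling, including the NF-κB subunits *Nfkb1* and *Rela* and the inhibitor *Socs1*, had a median of -0.04. *Irf1*, *Jak1* and *Rela* were the most abundant per kilobase, and *Irf8* was highest in estimate at 0.11. *Ifnar2*, a subunit of the type I interferon receptor, was at 17.7, 15.3 and 18.3 CPM in WT and 13.2, 13.2 and 14.9 CPM in MUT. All MUT mice were below WT, with a log2 fold change of -0.31 (unadjusted p = 0.0281, adjusted p = 0.998 from edgeR). Of the 69 tested pathway genes, 2 had all MUT mice below WT, *H2-M3* and *Ifnar2*, compared with 3.00% of all tested genes.

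Leukocyte genes moved with *B2m* and the heavy chains from mouse to mouse, but this was not particular to them. The meiotic and post-meiotic germ cell list summed to 1214, 990.9 and 1556 CPM in WT and 799.5, 833.6 and 1214 CPM in MUT. That list, too, was highest in WT replicate 3 and lowest in MUT replicate 1. Within it, *Sycp1* and *Sycp3* were also highest in WT replicate 3 but lowest in WT replicate 1. The 10 genes of the leukocyte and macrophage list summed to 1074, 964.2 and 1550 CPM in WT and 859.8, 998.4 and 1074 CPM in MUT. All 10 had estimates below 0 (median log2 fold change -0.278, from -0.38 for *C1qa* to -0.07 for *Coro1a*), compared with 48.2% of tested genes, and none passed in edgeR. With the block 7 had an unadjusted p under 0.05, all lower, where 4.71% of tested genes did. Per 100 CPM of that list, *H2-D1* was at 13.1, 14.2 and 14.0 in WT and 13.2, 12.5 and 14.0 in MUT. The highest and lowest mice thus differed 1.14-fold on that scale, compared with 1.92-fold in CPM. For *B2m* the spread was 1.25-fold instead of 2.26-fold, and for *H2-K1* 1.31-fold instead of 1.81-fold, with MUT at 0.921 and 1.04 times WT.

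Scaling by the leukocyte list did not narrow the other genes alike. The spread of *Tapbp* was 1.78-fold per leukocyte CPM against 1.34-fold in CPM, and that of *Psmb9* was 1.57-fold against 1.21-fold, whereas that of *Psmb8* was 1.65-fold against 2.15-fold. The groups overlapped on this scale for all 9 genes. The part of leukocyte RNA in the differences between WT and MUT was not tested, and no other list was used for scaling.

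**Figure D5:**
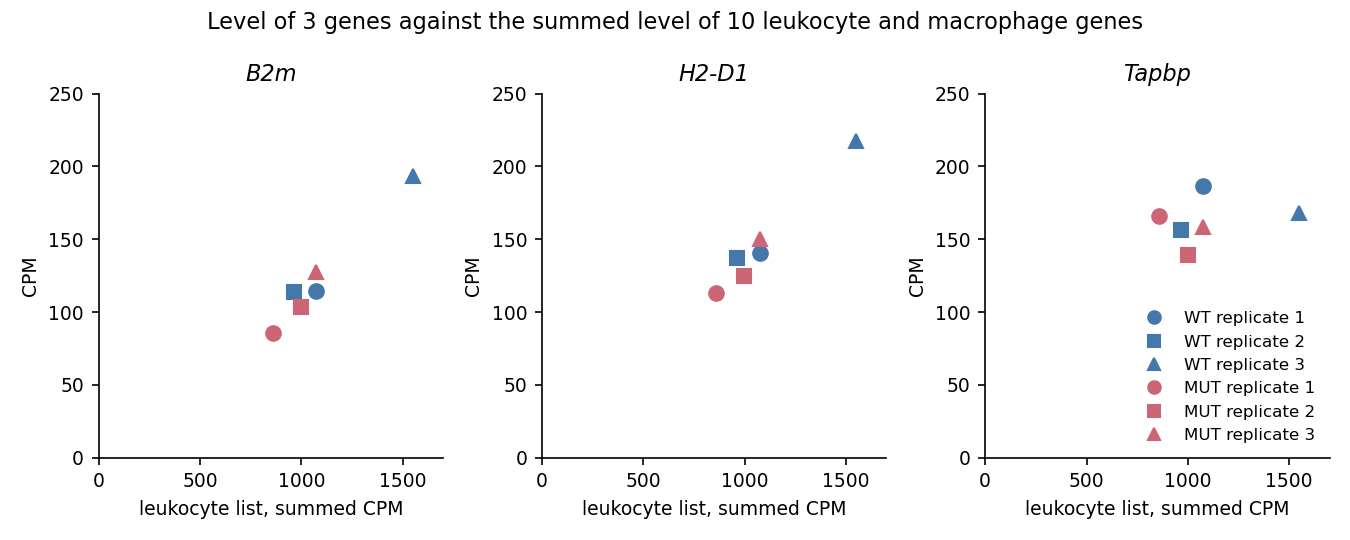
CPM of B2m, H2-D1 and Tapbp (vertical axes from 0) against the summed CPM of 10 leukocyte and macrophage genes (horizontal axes from 0), 1 point per mouse, coloured by genotype with a symbol per replicate. WT replicate 3 lies at 1550 CPM of the leukocyte list and is the highest mouse for B2m and H2-D1, whereas Tapbp is highest in WT replicate 1.

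The 9 genes of the MHC class II pathway, which in mice mark antigen-presenting cells, were likewise below 0 in all 9 estimates (median log2 fold change -0.412). edgeR called none of them with genotype only. With the block, edgeR gave 6 an unadjusted p under 0.05, all lower, against 4.71% of tested genes, and called none. DESeq2 with the block called 4 of the 9 lower, *Cd74*, *H2-Aa*, *H2-Ab1* and *H2-Eb1*, and 0.323% of the 17045 genes that had an adjusted p. *Cd74*, the invariant chain, was at 573.5, 628.8 and 853.1 CPM in WT and 364.2, 386.1 and 706.9 CPM in MUT. Without replicate 3 of both groups, *Cd74*, *H2-Aa*, *H2-Ab1* and *H2-Eb1* were called lower in MUT by edgeR, with log2 fold changes of -0.68, -0.65, -0.62 and -0.65. Of the class I lists in that fit, *H2-T23*, a class Ib gene (log2 fold change -0.55, adjusted p = 0.0831), and *Ide* (-0.3, adjusted p = 0.0313) were also called lower and *Psmb5* (0.49, adjusted p = 0.0225) higher.

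The genes most like the mean of *B2m*, *H2-K1* and *H2-D1* over the 6 mice, among 10583 genes of 10 CPM or more, were *Sgf29* (Pearson r = 0.993), *C1qb* (r = 0.991), *Pbx4* (r = 0.99), *Csf2ra* (r = 0.987) and *Cxcl16* (r = 0.987). *C1qb* encodes a complement component made by macrophages, and *Csf2ra* a receptor subunit of myeloid cells. Of the 5 genes, however, only *C1qb* is in a marker list used here. *Sgf29* and *Pbx4* are in none, so the 5 as a set do not name a cell type. These correlations rest on 6 libraries, WT replicate 3 was the highest for each of the 5 genes, and 298 genes reached r of 0.9 or more. Of the other members, *Psmb9* (r = 0.896), *Psmb8* (r = 0.88) and *Tap2* (r = 0.817) followed this pattern more closely than *Tap1* (r = 0.626), *Nlrc5* (r = 0.236) and *Tapbp* (r = 0.178). The 8 markers of undifferentiated spermatogonia ranged from r = -0.966 for *Sall4* to r = 0.178 for *Nanos2*, with *Gfra1* at -0.382 and *Mcam* at -0.363.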

How the data were processed

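RNA from sorted cells of 3 WT and 3 MUT mice was sequenced as stranded mRNA libraries. The deposited files hold unnormalized fragment counts for each gene name, which the authors made with featureCounts 1.6.2 on GENCODE vM17 with tdTomato added, without strand and without multi-mapping or ambiguous fragments. The submitters' processing notes name FastQC, STAR and GRCm38.p6.

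Genes were filtered with filterByExpr (19656 kept) and tested in edgeR 4.0.16 (R 4.3.3) with TMM scaling, quasi-likelihood F tests and no covariate beside genotype, p-values being adjusted by Benjamini-Hochberg and called at 0.1. CPM are TMM-scaled, and levels per kilobase use the deposited exon lengths. Ratios were compared with exact permutation tests over 20 assignments. DESeq2 1.42.0, limma 3.58.1 (voom), DESeq2 size factors, no filter, at least 10 counts in every sample, an FDR of 0.05, a replicate block, and each mouse left out were alternatives. Leaving out both mice numbered 3 was chosen after seeing the data. The edgeR script was tested on simulated data.

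Deviations from group means correlated at 0.304, 0.156 and 0.395 (over 10583 genes) in the pairs numbered 1, 2 and 3 by the labels, and at 0.326 between WT replicate 2 and MUT replicate 1, so the check does not single out the numbered pairs. The methods call the controls littermates without naming the pairs. Depth was between 22729292 and 23550433 fragments. Intervals and the limit of 3 counts do not cover variation from PCR, since no molecular identifiers were used. Promoters came from RefSeq (GRCm38.p6), and shared windows from GENCODE vM21.

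The members and lists were chosen with earlier results of these data known. Named genes are the 9 members and *Hras*, and of each list the genes that passed or did not overlap, the 3 with the highest level per kilobase, the lowest and highest fold change, the genes of the ratios, markers, and the 5 genes most like the class I genes. *H2-T23* and *H2-Ab1* were named after their values were seen.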

Additional observations from a re-analysis of the deposited data

How the results depend on the processing

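No member was called under any alternative, the lowest adjusted p being 0.137. Of 126 values of the members' log2 fold changes under alternatives, 124 kept their direction. The other 2 turned without WT replicate 3, *H2-K1* to 0.0326 (range -0.4 to 0.0326 with each mouse left out) and *Psmb9* to 0.00612 (range -0.13 to 0.00612). The count of all genes called, 2 in the main fit, was 9 in DESeq2, 4 in limma voom, 5 with no filter, 1 at an FDR of 0.05, 0 with at least 10 counts in every sample (479 at an unadjusted p under 0.05 in edgeR), 13 with the replicate block in edgeR, 55 with the block in DESeq2 and 456 without replicate 3 of both groups. It ranged from 0 to 6 when each mouse was left out, with 0 without MUT replicate 2 (292 genes at an unadjusted p under 0.05 in edgeR) and 1, 5 and 6 without MUT replicate 1, WT replicate 3 and MUT replicate 3. The count of class I pathway genes was 0 throughout except for 3 without replicate 3 of both groups. The log2 ratio of *Psmb9* to *Psmb6* lay between -0.12 and 0.00743 with each mouse left out, turning without MUT replicate 1. That of *Psmb8* to *Psmb5* lay between -1.1 and -0.514, and that of *Psmb10* to *Psmb7* between -0.251 and -0.1. Paired by replicate number, an exact sign-flip permutation test cannot go below p = 0.25 with 3 pairs, and gave 0.25 for *Psmb8* to *Psmb5*. With the block, the calls that changed among listed genes were *Jchain* and *Tnp1* in edgeR and, in DESeq2, those 2, *Prm1* and 4 class II genes. It changed no call of a member or of another class I pathway gene. The cause of these movements was not tested. With 3 mice per group, the interval of *Psmb8* includes a level up to 51.0% lower or 3.6% higher in MUT, and the lowest count of any of the 9 genes was 119, above the limit of 3.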

Other observations

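RNA of marker genes of other cell types in the sorted samples can be described from the remaining lists. The authors describe tdTomato+ testis cells as germline only, the *Gfra1* promoter being inactive in somatic cells of the testis. Whether this RNA came from other cells, from carried-over RNA or from the spermatogonia was not tested. Genes of Leydig cells, the testosterone-producing cells of the testis, summed to 67.3 CPM in MUT replicate 3 and to between 12.9 and 21.1 CPM in the other 5 mice. Genes of B and plasma cells summed to 15.4, 46.5 and 75.2 CPM in WT and 6.82, 5.98 and 18.9 CPM in MUT, and among them *Jchain*, the joining chain of secreted antibodies, had a log2 fold change of -2.69 and was called lower with the replicate block (adjusted p = 0.0257 from edgeR) and without replicate 3 of both groups (adjusted p = 0.00888 from edgeR). Genes of meiotic and post-meiotic germ cells summed to 1214, 990.9 and 1556 CPM in WT and 799.5, 833.6 and 1214 CPM in MUT, again highest in replicate 3 of each group. Of this list, *Prm2*, *Prm1* and *Tnp1* had the highest levels per kilobase. The spermatid gene *Tnp1* was called lower by edgeR with the block (adjusted p = 0.0794). Without replicate 3 of both groups, *Tnp1*, *Prm1* and *Prm2*, 3 of 7 genes, were called lower (log2 fold changes of -0.78, -0.76 and -0.69), where 2.33% of tested genes were called. In that fit 6 of the 7 had an unadjusted p under 0.05 in edgeR, 4 of them lower. The estimates of *Sycp1* and *Sycp3* were above 0 there (0.152 and 0.202). The markers of differentiating spermatogonia, led by *Sohlh1*, *Stra8* and *Dmrtb1*, were at 1.18 times WT in MUT, Sertoli cell genes at 1.17 times, peritubular myoid genes at 1.19 times, endothelial genes at 0.961 times, and T and NK cell genes at 0.821 times. No gene of these lists was called by edgeR in the fit with genotype only. In that fit 2 genes of the differentiating list, 1 of the meiotic list, 1 of the Sertoli list, 3 of the B and plasma cell list and 1 of the T and NK cell list had an unadjusted p under 0.05, compared with 2.78% of all tested genes.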
